A study of Mus musculus with 3 samples.

Results

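The members described here are the receptor gene Csf1r and the genes of its ligands, Csf1 and Il34. They were chosen by name, without use of their values, and make up 3 of the 31053 genes counted in dorsal root ganglion (DRG) cells before and after sciatic nerve injury. The DRGs of lumbar levels L3 and L4 were taken from both sides of male C57BL/6J mice aged 13 weeks, dissociated whole, and sequenced as single cells in droplets, with a unique molecular identifier (UMI) marking each captured transcript. The naïve library came from mice without the operation, and the other libraries from mice 7 and 14 days after spared nerve injury (SNI) on both sides, an operation that cuts branches of the sciatic nerve and leaves another intact. The labels name SNI. For its single-cell data the study's text names partial sciatic nerve ligation in the Results and SNI in the Discussion, and the name of the labels is used. The names of the injured libraries' data also carry the letters PBS, which the labels do not explain, so whether those mice received a vehicle is not known here. Each condition is 1 library, a pool of 8 DRGs from 2 mice, so no difference between conditions has a replicate check, and with injury on both sides there is no uninjured side to compare with. Because L3 and L4 DRGs also hold neurons whose axons the operation spares, the injured libraries mix injured and uninjured neurons.

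CSF1R is a receptor tyrosine kinase of the class III family that macrophages and microglia carry on their surface and depend on for survival, proliferation and differentiation. CSF1 and IL-34 share little sequence but bind the same receptor, and are made by different cells: in skin and brain, IL-34 comes from keratinocytes and neurons, while CSF1 comes from many stromal cells. In DRGs, injured sensory neurons are known to make CSF1, which acts on macrophages in the ganglion and on microglia in the spinal cord.

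In the mm10 mouse genome, Csf1 (ENSMUSG00000014599) lies on the minus strand at chr3:107741048-107760469 and overlaps no other annotated gene. Il34 (ENSMUSG00000031750) lies on the minus strand at chr8:110741829-110805924, where 2 antisense genes, Gm15894 and Gm15895, run on the other strand. Since the results turn on Csf1 in neurons after injury, the 250 bases upstream of its start site are shown, 5′ to 3′ on the minus strand (chr3:107760470-107760719, mm10, from RefSeq), in lower case throughout because no searched motif lay in them.
Csf1: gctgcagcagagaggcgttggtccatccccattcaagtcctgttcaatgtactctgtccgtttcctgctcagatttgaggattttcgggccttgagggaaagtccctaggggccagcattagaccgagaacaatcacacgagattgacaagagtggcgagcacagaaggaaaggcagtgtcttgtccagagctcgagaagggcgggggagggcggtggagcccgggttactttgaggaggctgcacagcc
The motifs searched on both strands were TGACTCA, bound by AP-1, and TGACGTCA, bound by CREB and ATF factors, and neither contains the other. Among 32851 promoter windows of the same length, 4.46% held the first and 1.55% the second.

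The 3 libraries held 3748 to 4908 cell barcodes and 22343246 to 36550911 UMIs. After filtering, 3152 naïve, 2682 day 7 and 3828 day 14 cells were kept, with median depths of 3072 to 4199 UMIs. Each kept cell was placed in 1 of 11 classes by lists of marker genes that left out Csf1, Il34, Csf1r and Atf3, and 883 of 9662 cells (9.14%) met no class; 380 of these had a lead over the runner-up class just under the required 1.5-fold, and 409 placed cells had a lead just over it. The class names are "like" names because the files hold no annotation of cells. Depth differed between libraries most in the neuron-like cells: 103 of 124 naïve, 56 of 174 day 7 and 116 of 143 day 14 neuron-like cells had at least 10000 UMIs, and the remaining day 7 cells had a median of 1438 UMIs with a summed level of the 9 myelinating Schwann cell markers of 6813 per 1000000 UMIs, against 972 in the deep day 7 cells. In the account of the neuron-like cells, those with at least 10000 UMIs are called deep cells. Pairs of libraries shared 1 to 6 barcode sequences.

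Levels are the UMIs of a gene per 1000000 UMIs of the cells in a class (CPM), with an exact 95% Poisson interval in parentheses, shares of cells carry exact Clopper-Pearson intervals, and ratios carry exact conditional binomial intervals. These intervals cover counting error only, and cells of 1 library are not replicates of a condition.

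Of the ligands, Csf1 was found at low level in most classes, and its order across classes differed between the libraries. Levels are ranked only over the 8 classes with at least 30 cells in each library, which leaves out the neutrophil-like, T and NK-like and B-like cells. In the naïve library, endothelial-like cells stood highest at 36.3 CPM (28.0 to 46.2), above satellite glial cell (SGC)-like cells at 19.8 CPM (15.98 to 24.3), with intervals that did not overlap. Mural-like cells followed at 11.9 CPM, non-myelinating Schwann-like cells at 11.6 CPM and fibroblast-like cells at 11.2 CPM, each from 3 to 5 UMIs, so that none could be told apart from SGC-like or neuron-like cells. Naïve neuron-like cells were at 6.30 CPM (4.72 to 8.25), macrophage-like cells at 5.73 CPM from 1 UMI, and myelinating Schwann-like cells, the most numerous class, were lowest at 1.73 CPM (0.697 to 3.57). The intervals of non-myelinating Schwann-like (up to 33.8 CPM), fibroblast-like (up to 32.7) and macrophage-like cells (up to 31.9) also overlapped that of endothelial-like cells. At day 7, fibroblast-like (50.1 CPM), endothelial-like (32.9), neuron-like (32.5) and SGC-like cells (28.0) had intervals that overlapped from each to the next. At day 14, fibroblast-like cells were highest at 54.1 CPM (39.2 to 72.9), overlapping non-myelinating Schwann-like cells at 33.1 CPM (19.6 to 52.3) but not neuron-like cells at 26.8 CPM (23.998 to 29.8).

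**Figure D1:**
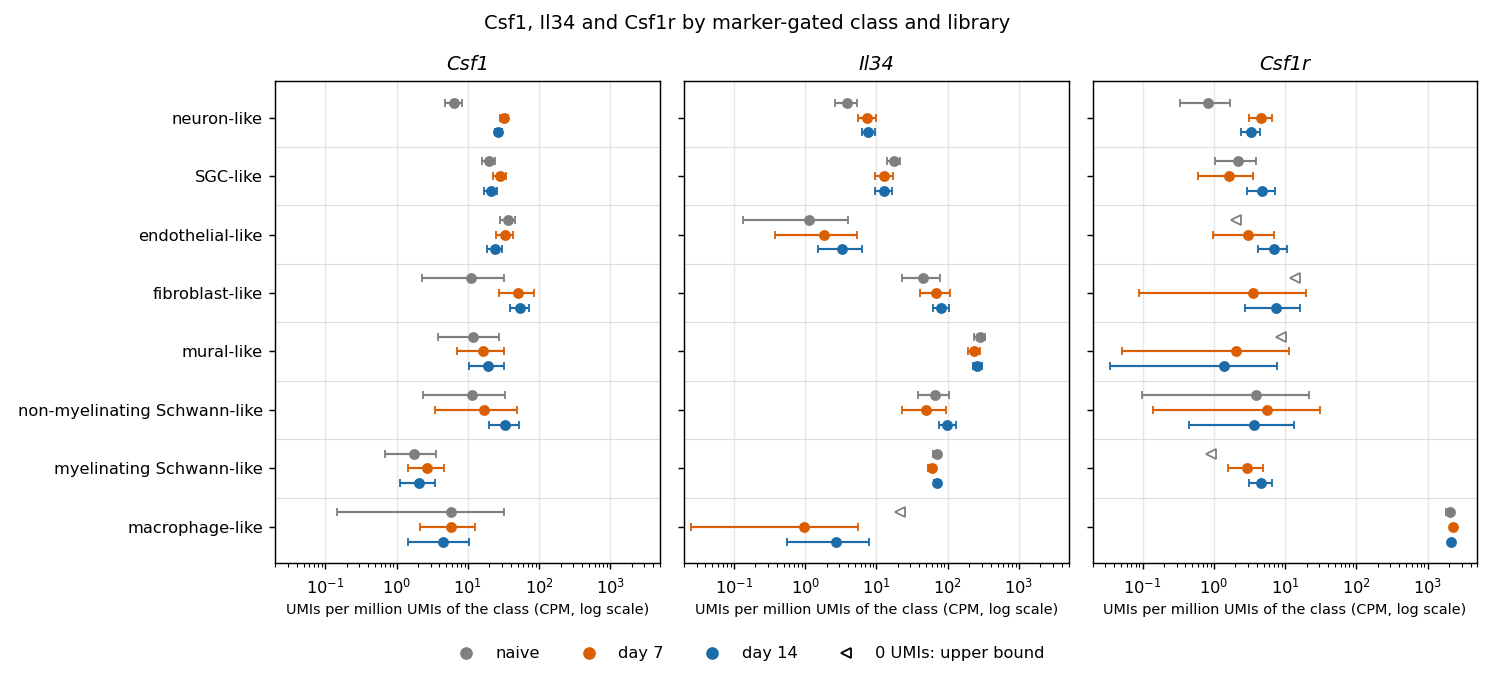
Levels of Csf1, Il34 and Csf1r in 8 classes, in CPM on a log axis, with points for the naïve, day 7 and day 14 libraries, bars for the exact 95% Poisson interval and open triangles for the upper bound of a class with 0 UMIs. Csf1 in neuron-like cells moves from 6.30 to 32.5 and 26.8 CPM, Il34 is highest in mural-like cells at 234 to 282 CPM, and Csf1r is highest in macrophage-like cells at 2032 to 2283 CPM.

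In neuron-like cells, Csf1 was 6.30 CPM in the naïve library, 32.5 CPM (28.3 to 37.2) at day 7 and 26.8 CPM at day 14, from 53, 211 and 337 UMIs. Both injured libraries lay above the naïve library and the intervals did not overlap. The ratio to the naïve library was 5.16-fold (3.80 to 7.11) at day 7 and 4.25-fold (3.17 to 5.79) at day 14, or 2.37 and 2.09 on the log2 scale. With a pseudocount of 1 CPM, 2.65% of the 12549 genes with at least 20 UMIs were at least 2-fold higher in neuron-like cells at day 7 and 4.06% of 13244 at day 14, and Csf1 was among them at both times. In cells of at least 10000 UMIs the levels were 6.35, 32.1 and 26.8 CPM. Csf1 was detected in 34 of 124 naïve (27.4%, 19.8 to 36.2), 32 of 174 day 7 (18.4%, 12.9 to 24.96) and 67 of 143 day 14 neuron-like cells (46.9%, 38.5 to 55.4), whose median depths were 67292, 2800 and 80460 UMIs. Because depth sets these shares, the deep cells were thinned to 10000 UMIs, which gave 5.96%, 18.4% and 19.1%. For scale, 0.514%, 1.13% and 0.852% of myelinating Schwann-like cells held a Csf1 UMI, at median depths of 2506, 3598 and 3585 UMIs.

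Atf3, a stress-induced transcription factor that marks neurons with a cut axon, was used to divide the neuron-like cells. A UMI of Atf3 was found in 27 of 124 naïve, 62 of 174 day 7 and 65 of 143 day 14 neuron-like cells, and Atf3 itself was 12.4, 166 and 107 CPM. Within the division, other genes of the injury response differed as well at day 7 and day 14. Sprr1a, a small proline-rich protein of regenerating axons, was 22.6 CPM in naïve cells with Atf3 and 0 in those without, 1079 CPM in day 7 cells with Atf3 against 44.3 CPM in those without (3.72 CPM in deep cells), and 490.1 against 1.80 CPM at day 14. Sox11, a transcription factor of axon regrowth, was 165 against 77.6 CPM in the naïve library, 777 against 121 CPM at day 7 and 581 against 67.8 CPM at day 14. The AP-1 gene Jun was 95.5 against 45.7, 200.3 against 87.6 and 210.4 against 70.7 CPM. Both were thus higher in cells with Atf3 in the naïve library too, by 1.09 (0.90 to 1.28) for Sox11 and 1.06 (0.81 to 1.32) for Jun on the log2 scale. The growth cone protein gene Gap43 was 301 against 260.4 CPM in the naïve library, 1296 against 398 CPM at day 7 and 1727 against 560.5 CPM at day 14. In the naïve library the neuropeptide gene Gal went the other way, with 1.85 CPM in cells with Atf3 and 64.0 CPM in those without, against 826 and 99.1 CPM at day 7 and 342 and 78.5 CPM at day 14. Among naïve cells with Atf3, 1 cell with at least 10 Atf3 UMIs held 58 of the 61 Sprr1a and 300 of the 812 Gap43 UMIs. It also held 111 of the 447 Sox11 and 34 of the 258 Jun UMIs. The naïve Sprr1a and Gap43 values thus depend heavily on 1 cell.

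The higher Csf1 level of the injured libraries lay in the neuron-like cells with Atf3. In cells without a UMI of Atf3, Csf1 was 5.78 CPM (3.98 to 8.12) in the naïve library, 5.58 CPM (3.19 to 9.06) at day 7 and 8.48 CPM (6.23 to 11.3) at day 14, with overlapping intervals. In cells with Atf3 it was 7.40 CPM (4.52 to 11.4), 53.8 CPM (46.5 to 61.9) and 41.2 CPM (36.6 to 46.2). The ratio of cells with Atf3 to cells without was 1.28-fold (0.696 to 2.30) in the naïve library, 9.64-fold (5.79 to 17.2) at day 7 and 4.86-fold (3.56 to 6.76) at day 14. At least 2-fold higher in cells with Atf3 were 1.67% of tested genes in the naïve library, 4.62% at day 7 and 2.94% at day 14, with Csf1 among them at day 7 and day 14 only. Measured against the naïve library within each part, cells with Atf3 differed by 2.86 (2.19 to 3.604) and 2.48 (1.82 to 3.21) on the log2 scale, and cells without by -0.05 (-1.01 to 0.85) and 0.55 (-0.12 to 1.24). Cells with Atf3 were also deeper, with median depths of 94486, 9329 and 102609 UMIs against 44875, 1825 and 58864 in cells without. In deep cells alone, Csf1 was 7.41, 53.2 and 41.0 CPM with Atf3 and 5.84, 4.46 and 8.60 CPM without. The summed level of the 7 SGC markers was slightly lower in cells with Atf3 than in those without, at 830.4 against 1054, 1289 against 1365 and 1144 against 1254 CPM.

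The level of Csf1 was uneven along the range of Atf3. Cells with 1 to 9 UMIs of Atf3 held Csf1 at 6.48, 5.63 and 9.21 CPM, close to the cells with none and within their intervals. Cells with 10 to 29 UMIs, limits chosen after the values were seen, held 45.1 CPM at day 7 (1 cell) and 47.8 CPM at day 14 (7 cells). Cells with 30 or more held 172 CPM (147 to 199) at day 7 in 9 cells and 95.8 CPM (83.7 to 109) at day 14 in 19 cells, every one of them with a UMI of Csf1. The only naïve cell with 10 or more Atf3 UMIs, a cell with 42, held 3 UMIs of Csf1 and 39.0 CPM. Thus 181 of the 211 Csf1 UMIs at day 7 lay in 10 of 174 neuron-like cells, and 252 of the 337 at day 14 in 26 of 143 cells. Cells with at least 10 Atf3 UMIs were 159 CPM against 5.60 in the others at day 7, a difference of 4.83 (4.27 to 5.44) on the log2 scale, and 86.5 against 8.79 CPM at day 14, a difference of 3.30 (2.94 to 3.67). The shares of all tested genes 2-fold higher in those cells were 8.54% and 5.87%. The 13 macrophage markers summed to 167 CPM in them at day 7 and 36.7 CPM at day 14, and macrophage-like cells held Csf1 at 5.86 and 4.46 CPM. The part of macrophage RNA in the Csf1 level of these neuron-like cells was not tested.

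**Figure D2:**
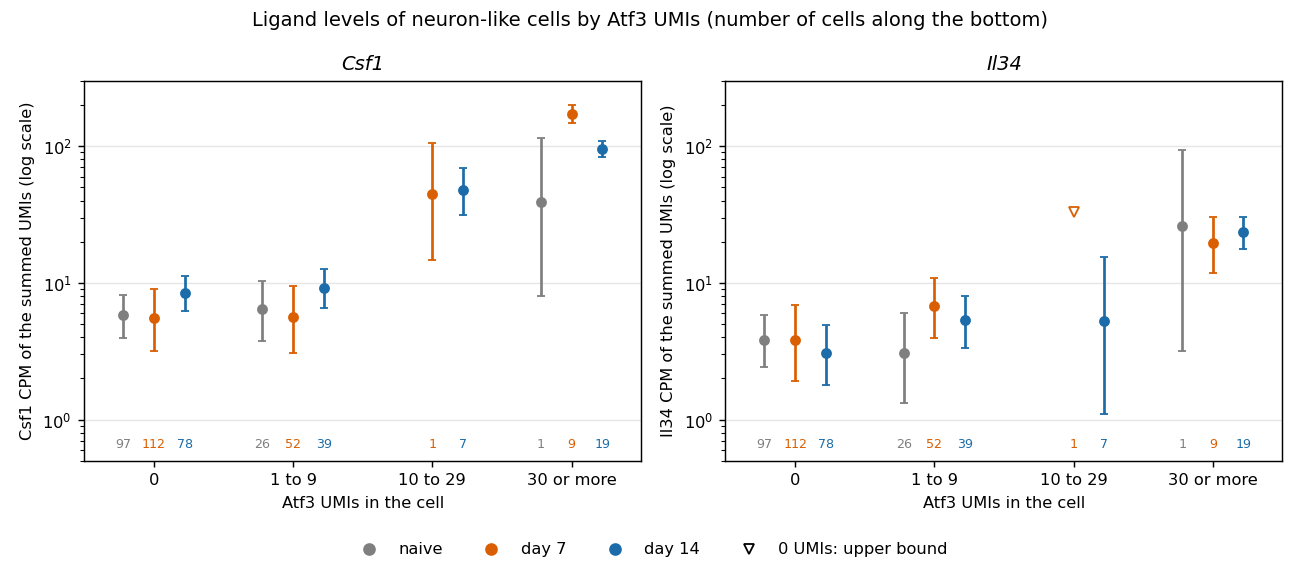
Csf1 (left) and Il34 (right) in neuron-like cells grouped by the UMIs of Atf3 in the cell, in CPM on a log axis with exact 95% Poisson intervals, for the naïve, day 7 and day 14 libraries; the small numbers are cells and open triangles an upper bound for 0 UMIs. Csf1 stays at 5.58 to 9.21 CPM up to 9 Atf3 UMIs and reaches 172 and 95.8 CPM in injured cells with 30 or more.

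Among single cells with at least 10 Atf3 UMIs, the lowest, median and highest Csf1 counts were 5, 16.5 and 28 UMIs at day 7, or 45.1, 152 and 327 CPM of the cell. At day 14 they were 0, 6 and 58 UMIs, or 0, 66.8 and 458 CPM. All these cells had at least 10000 UMIs, so none was a shallow barcode. At day 14, 1 cell held 58 of the 337 Csf1 UMIs, and without the highest cell the class level was 22.4 CPM, still above every value of the naïve interval.

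**Figure D3:**
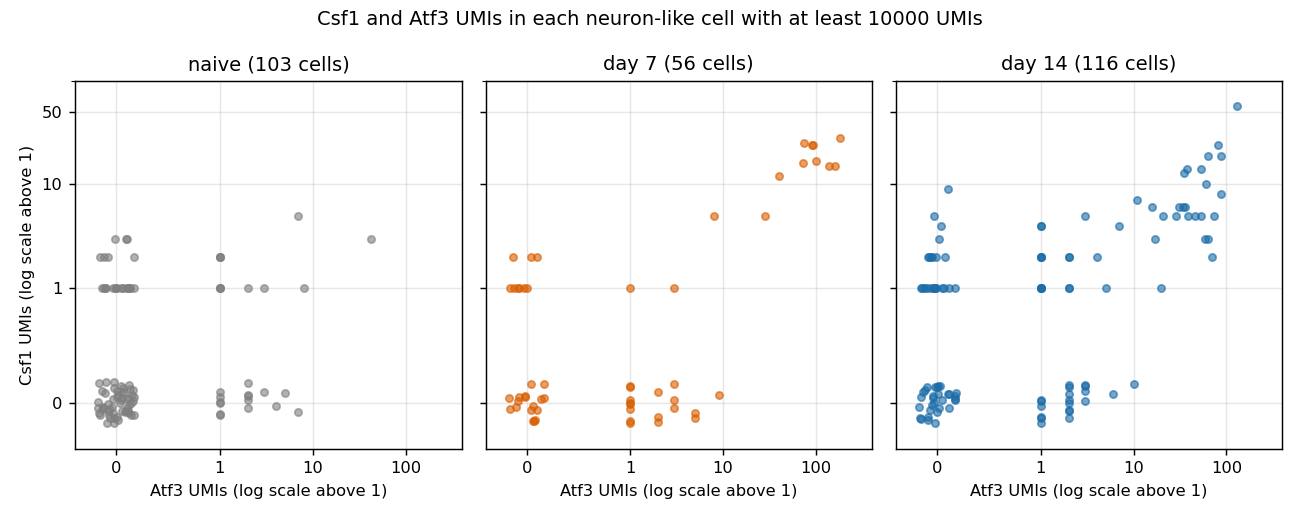
Each point is a neuron-like cell of at least 10000 UMIs, placed by its Atf3 UMIs and its Csf1 UMIs on axes that are logarithmic above 1, with a small random offset at 0. Cells with 10 or more Atf3 UMIs (1 naïve, 10 at day 7, 26 at day 14) hold 3, 5 to 28 and 0 to 58 Csf1 UMIs.

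The neuron types were then compared for Csf1. Types were named from 4 short marker lists in cells of at least 10000 UMIs, and only cells with Atf3 are compared here. In the Nefh type, large neurons with myelinated axons, Csf1 was 0 of 207939 UMIs in 2 naïve cells, 80.6 CPM (62.7 to 102) in 9 day 7 cells and 98.3 CPM (75.2 to 126) in 7 day 14 cells. Peptidergic neurons, nociceptors that release neuropeptides, held 8.07 CPM in 6 naïve cells, 102 CPM (80.1 to 128) in 6 day 7 cells and 38.7 CPM (32.6 to 45.7) in 36 day 14 cells. Non-peptidergic nociceptors held 10.9 CPM in 8 cells, 31.3 CPM (22.9 to 41.7) in 10 cells and 44.6 CPM (35.6 to 55.2) in 12 cells. In the Nefh and peptidergic types both injured libraries had intervals above that of the naïve library, also without the highest cell of each library, where the levels were 56.4 and 77.9 CPM in the former and 79.4 and 33.4 CPM in the latter. In the non-peptidergic type the injured intervals lay above the naïve interval (5.66 to 19.1) only through a few cells: 58 of the 84 UMIs at day 14 lay in 1 cell, and 44 of the 46 at day 7 in 2 cells. At day 7, all 69 Nefh type UMIs likewise lay in 4 of 9 cells, and 68 of the 73 peptidergic UMIs in 4 of 6 cells. Cells with at least 10 Atf3 UMIs held 142 and 108 CPM at day 7 and day 14 in the non-peptidergic type. They held 193 and 101 CPM in the Nefh type and 145 and 79.8 CPM in the peptidergic type. Without the highest cell of each library, a setting chosen after the values were seen, the non-peptidergic level was 6.99 CPM (2.81 to 14.4) in the naïve library. It was then 14.1 CPM (8.36 to 22.3) at day 7 and 14.8 CPM (9.67 to 21.7) at day 14, and both intervals overlapped that of the naïve library. The Th type, low-threshold neurons of hairy skin, showed no higher level: its cells with Atf3 held 4.44 CPM in 10 naïve cells, 0 UMIs in 5 day 7 cells, which allows up to 6.11 CPM, and 2.27 CPM (0.274 to 8.18) in 7 day 14 cells. Of these day 14 Th type cells, 1 held at least 10 Atf3 UMIs, against 5 of 7 in the Nefh type, 15 of 36 peptidergic and 5 of 12 non-peptidergic cells.

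Outside neurons, the Csf1 level of SGC-like cells, the glia that enclose the neuron bodies, was 19.8 CPM in the naïve library, 28.0 CPM (22.9 to 34.0) at day 7 and 21.0 CPM (16.9 to 25.7) at day 14. The differences of 0.50 (0.08 to 0.92) and 0.08 (-0.35 to 0.51) on the log2 scale were under the 2-fold that 0.994% and 0.956% of tested genes passed in this class. In endothelial-like cells, which line the vessels, Csf1 was 36.3, 32.9 (24.7 to 42.9) and 24.05 CPM (18.6 to 30.6), the only class of the 8 with a day 14 interval of the ratio wholly below 0, at -0.59 (-1.11 to -0.08). Fibroblast-like cells, the connective tissue cells of the ganglion and its sheath, held 3 UMIs in the naïve library (11.2 CPM, 2.31 to 32.7), 14 at day 7 (50.1 CPM, 27.4 to 84.0) and 43 at day 14 (54.1 CPM). The ratios were 4.48-fold (1.25 to 24.3) and 4.84-fold (1.55 to 24.4), wide because of the 3 naïve UMIs; at day 14, 5.72% of tested genes in this class were at least 2-fold higher, and at day 7 Csf1 had too few UMIs to enter that count. Csf1 was detected in 3 of 82, 12 of 69 and 34 of 169 fibroblast-like cells, or 2.97%, 10.3% and 9.30% after thinning to 2000 UMIs.

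Among the Schwann-like cells, Csf1 had its highest value at day 14 in the non-myelinating class, with 18 UMIs and 33.1 CPM against 3 UMIs in each of the other libraries (11.6 and 16.8 CPM). The day 14 ratio of 2.86-fold (0.836 to 15.2) had an interval that included 1, and 5.08% of tested genes in that class were 2-fold higher. In the same cells Atf3 was 38.5, 39.1 and 219 CPM. Myelinating Schwann-like cells stayed at 1.73, 2.70 and 2.07 CPM. Mural-like cells held 11.9, 16.3 and 19.3 CPM with overlapping intervals, and macrophage-like cells, which carry the receptor, held only 1, 6 and 5 UMIs of Csf1 (5.73, 5.86 and 4.46 CPM). In T and NK-like cells, all 22 Csf1 UMIs of day 14 lay in 1 of 35 cells, and none was found in the 9 naïve and 21 day 7 cells.

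Il34 followed another map of classes, with the highest level of the 8 in mural-like cells, the pericytes and smooth muscle cells of vessel walls. Their Il34 was 282 CPM (234 to 338) in the naïve library, 234 CPM (193 to 281) at day 7 and 261 CPM (225 to 301) at day 14. Log2 ratios to the naïve library were -0.27 (-0.66 to 0.11) and -0.11 (-0.45 to 0.23), so that no difference was detectable with these cells. With a stricter cell filter (at least 1000 genes, at most 10% mitochondrial UMIs) the levels were 579, 354 and 401 CPM and the ratios -0.71 (-1.28 to -0.15) and -0.53 (-1.04 to -0.03), whose intervals lay below 0. Il34 was found in 57.3%, 59.8% and 58.6% of mural-like cells, and in 36.3%, 42.3% and 41.4% after thinning to 2000 UMIs. In endothelial-like cells, which share the vessel wall, the shares were 0.667%, 0.939% and 1.82% at median depths of 3925 to 5881 UMIs, against 3348 to 4061 in mural-like cells.

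The mural-like cells were not uniform in Il34. Cells with under 5 UMIs of the smooth muscle genes Acta2 and Myh11 together, a limit chosen after the values were seen, held Il34 at 657 CPM (512 to 831) in the naïve library, 539 CPM (407 to 700) at day 7 and 529.8 CPM (441 to 631) at day 14. Cells with 5 or more held 156 CPM (115 to 206), 152 CPM (116 to 196) and 132 CPM (102 to 169). The former lay 2.08 (1.53 to 2.64), 1.83 (1.27 to 2.38) and 2.00 (1.56 to 2.46) above the latter on the log2 scale, in each library without overlap. Kcnj8, a potassium channel gene of pericytes, was 498, 568 and 572 CPM in the cells with under 5 such UMIs and 9.52, 12.9 and 20.4 CPM in the rest, while Tagln, a smooth muscle gene, was 207, 221 and 237 against 6244, 5086 and 5054 CPM. The cells with under 5 were also shallower, with median depths of 1788 to 2485.5 UMIs against 4518.5 to 6689, and the part of depth in the division was not tested.

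Below the mural-like cells came the Schwann-like and fibroblast-like cells, whose Il34 intervals overlapped. Myelinating Schwann-like cells, which wrap the large axons, held 69.6 CPM (61.7 to 78.3), 59.5 CPM (52.8 to 66.8) and 70.2 CPM (64.0 to 76.8), with log2 ratios of -0.23 (-0.47 to 0.02) and 0.01 (-0.20 to 0.23). Non-myelinating Schwann-like cells held 65.5, 50.3 and 99.3 CPM from 17, 9 and 54 UMIs, and fibroblast-like cells 44.7, 68.0 and 80.6 CPM from 12, 19 and 64 UMIs, with a day 14 ratio of 0.85 (-0.05 to 1.87) in the latter. Lower still were SGC-like cells at 17.4 (13.9 to 21.7), 12.8 and 12.8 CPM. With the main cell filter, none of the 8 classes other than the neuron-like cells had an interval of the Il34 ratio that excluded 0 at either time, while mural-like cells had with the stricter one.

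In neuron-like cells Il34 was 3.81 CPM (2.60 to 5.37) in the naïve library, 7.39 CPM (5.45 to 9.80) at day 7 and 7.71 CPM (6.25 to 9.40) at day 14, from 32, 48 and 97 UMIs. Both ratios, 1.94-fold (1.22 to 3.14) and 2.03-fold (1.35 to 3.12), had intervals above 1, and with the pseudocount neither reached 2-fold. In deep cells the levels were 3.83, 7.07 and 7.76 CPM. As with Csf1, the difference lay in cells with Atf3. Without Atf3, Il34 was 3.86, 3.84 and 3.07 CPM, and with Atf3 it was 3.70 CPM (1.78 to 6.81), 10.2 CPM (7.19 to 14.1) and 11.4 CPM (9.01 to 14.1). Cells with 30 or more Atf3 UMIs held 19.5 CPM (11.9 to 30.1) at day 7 and 23.4 CPM (17.7 to 30.5) at day 14, where 18 of 19 such cells had a UMI of Il34. These levels remained below those of mural-like and myelinating Schwann-like cells in the same libraries.

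Macrophage-like cells, which carry the receptor, held 0, 1 and 3 UMIs of Il34; the naïve count of 0 allows up to 17.2 CPM. Endothelial-like cells held 2, 3 and 9 UMIs.

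Csf1r (ENSMUSG00000024621, mm10 chromosome 18, plus strand) overlaps the microRNA gene Mir6983 on its own strand and Hmgxb3 on the other, and whether the counts separate strands is not given in the sources used here. It was found almost wholly in macrophage-like cells, where it served as a check of the class, since the receptor was not among the 13 markers of the gate. These cells held 355 of 382 naïve (92.9%), 2336 of 2481 day 7 (94.2%) and 2421 of 2658 day 14 Csf1r UMIs (91.1%), and 57 of 70, 203 of 213 and 243 of 260 of them had at least 1 Csf1r UMI. After thinning to 2000 UMIs the shares were 89.5%, 95.5% and 91.5%. All 13 macrophage markers were present, with summed levels of 28655, 27932 and 27066 CPM.

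Taken as CPM of the summed UMIs of macrophage-like cells, the receptor level differed little between the 3 libraries. Csf1r was 2032 CPM (1827 to 2255) in the naïve library, 2283 CPM (2191 to 2378) at day 7 and 2161 CPM (2076 to 2249) at day 14. The intervals overlapped, and the log2 ratios to the naïve library were 0.17 (0.01 to 0.33) and 0.09 (-0.07 to 0.25). The interval of the day 7 ratio thus lay just above 0. In this class, 9.56% of tested genes at day 7 and 11.0% at day 14 were 2-fold higher, and Csf1r was not among them. The median over single cells was 1620.1, 2239.6 and 2079.8 CPM, or 3, 9 and 7 UMIs at median depths of 2220.0, 4372 and 3750.5 UMIs.

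Over all kept cells, by contrast, Csf1r was 18.0 CPM (16.2 to 19.9) in the naïve library, 124 CPM (119.5 to 129) at day 7 and 82.2 CPM (79.1 to 85.4) at day 14, a ratio of 6.92-fold (6.21 to 7.72) and 4.57-fold (4.11 to 5.10). Macrophage-like cells made up 2.22% (1.74 to 2.80) of kept naïve cells, 7.94% (6.95 to 9.03) at day 7 and 6.79% (6.02 to 7.64) at day 14. Dissociation and capture can set such shares, and with 1 library per condition more macrophages in the tissue and more of them captured cannot be told apart. The depth of the cells also enters the level over all kept cells. Macrophage-like cells held 174665 of 21242627 UMIs in the naïve library, 1023215 of 19946431 at day 7 and 1120260 of 32317749 at day 14. The part of depth in these ratios was not tested.

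Within the class, the receptor level differed between states of the macrophages. Cells with a UMI of Ccr2, the chemokine receptor of monocytes that enter from blood, held Csf1r at 1118 CPM (868 to 1417) in the naïve library, 1838 CPM (1711 to 1973) at day 7 and 1374 CPM (1262 to 1492) at day 14. Cells without Ccr2 held 2521, 2593 and 2613 CPM, and the log2 differences of -1.17 (-1.58 to -0.79), -0.50 (-0.62 to -0.37) and -0.93 (-1.07 to -0.79) all lay below 0. Cells with Mrc1, the mannose receptor of resident tissue macrophages, stood at 2340.0, 2361 and 2281 CPM, and the 16, 16 and 19 cells without it at 658, 1221 and 897 CPM. Cells with Cx3cr1, the fractalkine receptor, stood at 2224, 2384 and 2440.5 CPM against 1675, 1706 and 969 CPM without. Mrc1 and Cx3cr1 belong to the lists that placed the cells, and Ccr2 does not. The divisions overlapped and are not separate results. Of cells with Ccr2, 7 of 21 naïve, 63 of 76 day 7 and 68 of 80 day 14 cells also held Mrc1. Among the cells without Mrc1, 14 of 16, 13 of 16 and 12 of 19 held Ccr2. Median depths were 2737, 5172.5 and 4364 UMIs with Ccr2 and 2150.0, 3841 and 3434 without, 2495, 4325 and 3707 with Mrc1 and 1892, 4664.5 and 4160.0 without, and 2220.0, 4647 and 3998 with Cx3cr1 and 2302.5, 2632 and 2262 without. The part of depth in these divisions was not tested.

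Cells with a UMI of Top2a also differed in the receptor between the times. Top2a, the topoisomerase of cycling cells, had a UMI in 0 of 70 naïve (which allows up to 4.29%), 10 of 213 day 7 and 10 of 260 day 14 macrophage-like cells. At day 7 those cells held Csf1r at 2228 CPM (1913 to 2581), next to 2288 CPM in cells without Top2a, and all 10 had a UMI of it. At day 14 they held 535 CPM (386 to 724), against 2284 CPM without Top2a, and 6 of 10 had a UMI. The log2 differences were -0.04 (-0.27 to 0.18) and -2.09 (-2.57 to -1.65). Top2a itself was spread differently over the cells with it. At day 7, 1 cell held 26 of the 47 Top2a UMIs, and at day 14 the highest cell held 15 of 56. Other genes of these cells, looked at after their values were seen, also differed between the times: the complement gene C1qa was 4168 CPM at day 7 and 994 CPM at day 14, Ccr2 was 563 and 2230.5 CPM, and Flt3, a receptor of dendritic cells and their progenitors, had 0 UMIs at day 7 and 12 UMIs in 4 cells at day 14.

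**Figure D4:**
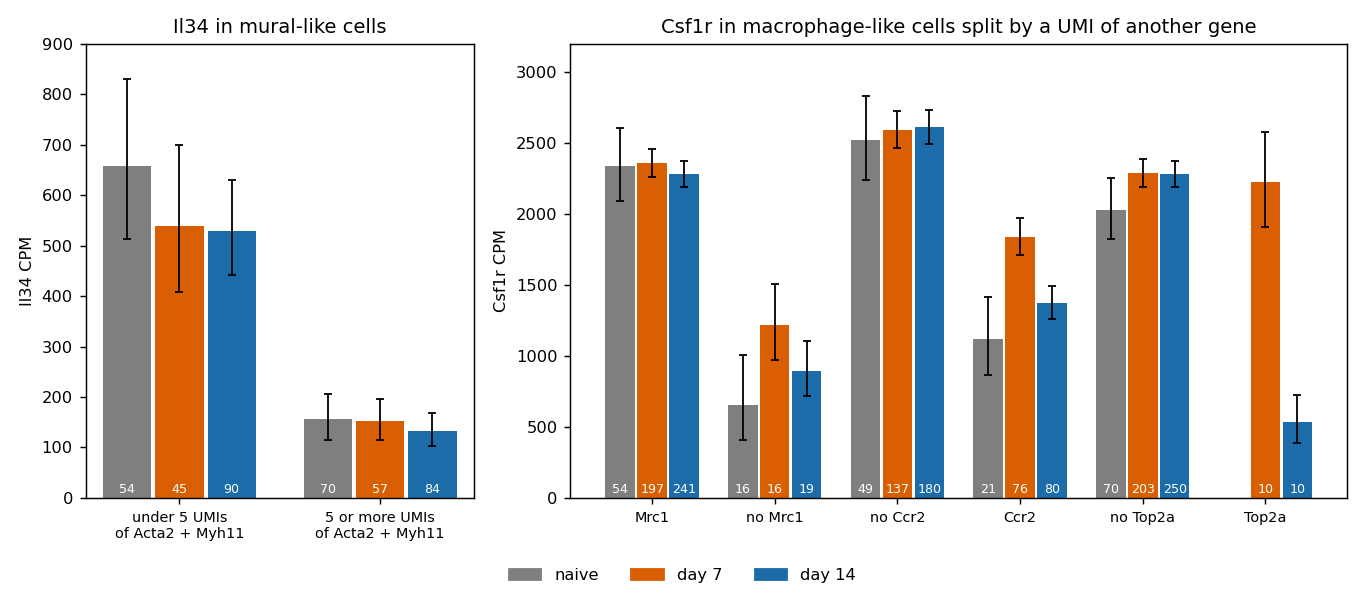
Left, Il34 in mural-like cells with under 5 and with 5 or more UMIs of Acta2 and Myh11, and right, Csf1r in macrophage-like cells with and without a UMI of Mrc1, Ccr2 or Top2a, both in CPM from 0 with exact 95% Poisson intervals and the number of cells at the foot of each bar. Il34 is 529.8 to 657 CPM in the first group and 132 to 156 in the second, and Csf1r in cells with Top2a is 2228 CPM at day 7 and 535 CPM at day 14.

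Outside the macrophage-like cells, Csf1r was at 0 to 7.55 CPM in the other 7 classes of at least 30 cells per library, and in several of them the injured libraries lay above the naïve library. Neuron-like cells held 0.833, 4.62 and 3.34 CPM from 7, 30 and 42 UMIs, with ratios of 5.55-fold (2.39 to 14.97) and 4.01-fold (1.78 to 10.6), both past 2-fold with the pseudocount, and 0.838, 4.02 and 3.28 CPM in deep cells. With Atf3 they held 0.740, 6.35 and 3.55 CPM, and without it 0.876, 2.44 and 3.07 CPM. The ratio of these parts was 2.60-fold (1.08 to 7.17) at day 7 and 1.16-fold (0.601 to 2.29) at day 14. At day 7 it passed 2-fold with the pseudocount, as did 4.62% of tested genes. Of the 30 day 7 UMIs, 19 lay in cells with at least 10 Atf3 UMIs. SGC-like cells held 2.15, 1.63 and 4.78 CPM, with overlapping intervals. Their ratios were 0.759-fold (0.227 to 2.30) and 2.22-fold (1.001 to 5.28), the latter just above 1 and not past 2-fold with the pseudocount. Myelinating Schwann-like cells held no UMI in the naïve library, for a limit of 0.743 CPM. They held 2.90 CPM (1.59 to 4.87) at day 7 and 4.59 CPM (3.12 to 6.52) at day 14. These levels were 3.91-fold and 6.18-fold that limit, figures that leave out the counting error of the injured counts. At day 14, 0.882% of tested genes in this class were 2-fold higher. Endothelial-like cells held 0 (up to 1.67), 3.04 and 6.92 CPM, and 14 of the 19 UMIs at day 14 lay in 1 cell.

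Macrophage markers were higher in both injured libraries in the classes named next, but did not follow Csf1r in all of them. In SGC-like cells Csf1r was lower at day 7 than in the naïve library. In endothelial-like cells the markers were highest at day 7 and Csf1r at day 14. The summed level of the 13 macrophage markers was 6.18, 50.5 and 25.7 CPM in neuron-like cells, 12.5, 31.0 and 45.6 CPM in SGC-like cells, 10.9, 35.3 and 40.3 CPM in myelinating Schwann-like cells and 46.3, 164 and 87.1 CPM in endothelial-like cells. In neuron-like cells there were 13.5, 9.15 and 13.0 Csf1r UMIs per 100 macrophage marker UMIs, against 7.09, 8.17 and 7.98 in macrophage-like cells. Of the 30 Csf1r UMIs in day 7 neuron-like cells, 20 lay in 4 cells that also held at least 2 UMIs of the complement genes C1qa, C1qb and C1qc, and at day 14 it was 14 of 42 UMIs in 8 cells. The part of free RNA and of attached macrophages in these low values was not tested. Shares of neuron-like cells with a Csf1r UMI were 4.84%, 7.47% and 21.7%, or 0.684%, 3.52% and 2.74% in deep cells thinned to 10000 UMIs, and those of the far shallower myelinating Schwann-like cells 0, 1.05% and 1.46%; no expression by neurons is read from them.

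Setting the members side by side, the classes that supplied their UMIs differed. Of the Csf1 UMIs in kept cells, neuron-like cells gave 21.3% (16.4 to 26.9) in the naïve library, 48.5% (43.7 to 53.3) at day 7 and 50.3% (46.4 to 54.2) at day 14. SGC-like cells gave 36.9%, 23.7% and 13.7%, and endothelial-like cells 26.1%, 12.4% and 9.85%. Of the Il34 UMIs, myelinating Schwann-like cells gave 49.3%, 52.8% and 47.4% and mural-like cells 20.9%, 21.1% and 19.0%. These shares depend on how many cells of each class were captured and on their depth, and are not shares of the tissue's transcripts.

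**Figure D5:**
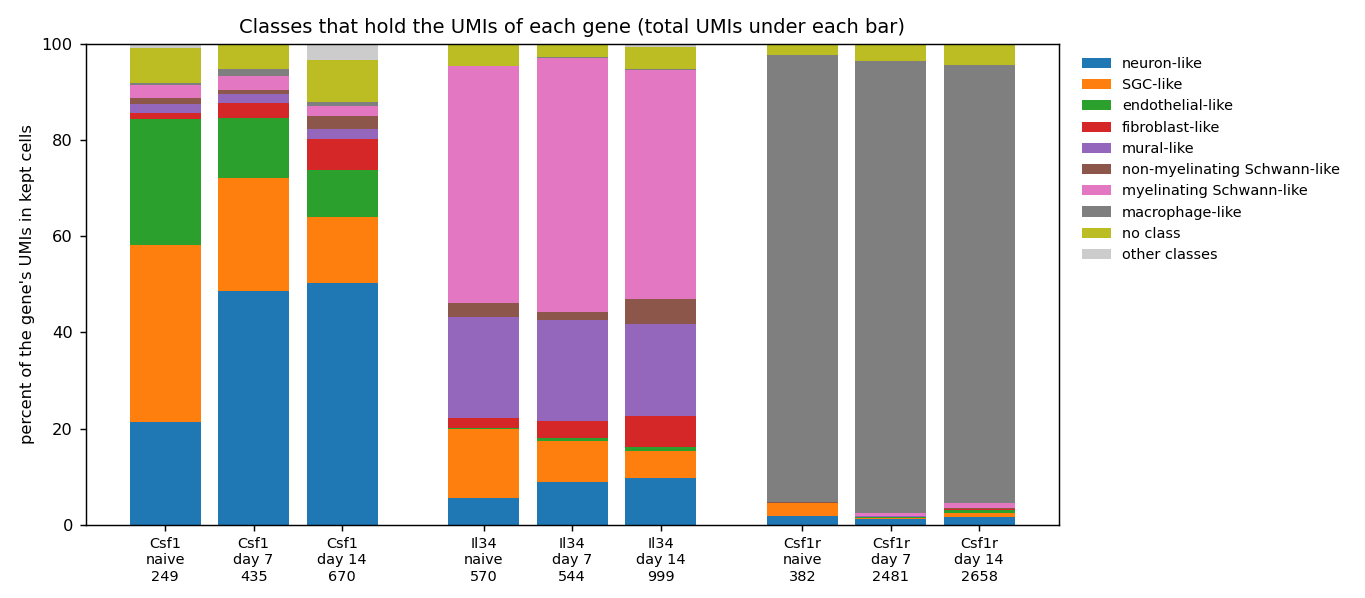
Percent of the UMIs of Csf1, Il34 and Csf1r in kept cells that lay in each class, for the naïve, day 7 and day 14 libraries, with the number of UMIs under each bar. The neuron-like share of Csf1 is 21.3%, 48.5% and 50.3%, while myelinating Schwann-like cells hold 47.4% to 52.8% of Il34 and macrophage-like cells 91.1% to 94.2% of Csf1r.

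A list of 33 genes around the receptor was followed in the same classes. In macrophage-like cells, 24 had at least 20 UMIs at day 7 and 26 at day 14, of which 1 was at least 2-fold higher at each time and none lower. Of all tested genes, 9.56% and 11.0% were at least 2-fold higher at these times and 3.94% and 4.16% lower. The median log2 ratio of the list was -0.01 at day 7 and 0.14 at day 14, beside 0.07 and 0.06 over all genes tested. The gene higher at day 7 was Trem2, a lipid-sensing receptor that signals through Tyrobp, with 206, 429 and 355 CPM and a log2 ratio of 1.06 (0.57 to 1.59) at day 7 and 0.79 (0.29 to 1.32) at day 14. Tyrobp itself, an adaptor that CSF1R signalling also uses, was 1580.2, 1775 and 1499.7 CPM. The gene higher at day 14 was Flt3, with 1, 7 and 24 UMIs, 12 of the 24 in the cells with Top2a described above, and a day 14 log2 ratio of 1.90 (-0.71 to 7.27) whose interval includes 0.

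Of the transcription factors that act at the Csf1r locus, Spi1 (PU.1) was 452, 371 and 369.6 CPM in macrophage-like cells, with log2 ratios of -0.28 (-0.64 to 0.08) and -0.29 (-0.64 to 0.07). Runx1 was 509.5, 367 and 334 CPM, with ratios of -0.47 (-0.81 to -0.12) and -0.61 (-0.95 to -0.26). Irf8 was 298, 298 and 481 CPM. The signalling genes Grb2, Cbl, Pik3cd, Inpp5d and Ptpn6 had intervals of the ratio that included 0 at both times, as did Csf2ra, the receptor chain for GM-CSF, at 269, 265 and 292 CPM. The cytokine genes Csf2 and Csf3 had 0 UMIs in all 8 classes of every library, which for macrophage-like and neuron-like cells allows up to 17.2, 2.93 and 2.68 CPM in the former and 0.357, 0.462 and 0.238 CPM in the latter.

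In neuron-like cells, 23 of the 33 genes had at least 20 UMIs at each time, with 4 at least 2-fold higher at day 7 and 2 at day 14 (2.65% and 4.06% of all tested genes were), none lower (0.964% and 0.725%), and a median log2 ratio of 0.10 and 0.14 beside 0.03 and 0.08 over all genes. Sdc1, a heparan sulphate proteoglycan that binds IL-34, was higher at both times, at 37.0, 105 and 76.5 CPM. Ptprz1, a receptor phosphatase that also binds IL-34, was 13.8, 29.1 and 24.9 CPM, and Kit, the receptor for stem cell factor, was 38.2, 43.6 and 82.9 CPM and past 2-fold at day 14. The other genes higher at day 7, Tyrobp (0.357, 4.31 and 1.43 CPM) and Csf2rb (0.595, 5.70 and 0.477 CPM), belong to myeloid cells, whose markers were also higher in that library's neuron-like cells as given above. Tyrobp is itself among the macrophage markers of the gate, so their summed level includes it, and their part was not tested.

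Elsewhere few of these genes passed 2-fold. No listed gene did so in SGC-like, myelinating Schwann-like or mural-like cells, where 15 to 19 of the 33 had at least 20 UMIs. Among all tested genes, 0.444% and 0.526% were 2-fold lower in SGC-like cells at day 7 and day 14. In myelinating Schwann-like cells 0.651% were higher at day 7, and 0.488% and 0.573% lower at the 2 times. In mural-like cells 2.75% and 3.74% were higher and 2.41% and 1.86% lower. In SGC-like cells Ptprz1 was 837, 936 and 909 CPM, far above its level in neuron-like cells. In endothelial-like cells 4 of 21 genes (Ptprz1, Tyrobp, Pik3cd and Irf8) were higher at day 7, where 1.48% of all tested genes were, and 1 of 19 (Pik3cd) at day 14, against 2.00%; none was lower, against 1.17% and 1.29%. Tyrobp and Irf8 are myeloid genes, and the macrophage markers given above, which include Tyrobp, were likewise highest at day 7 in this class. The part of myeloid cells in these values was not tested. In fibroblast-like cells Kitl was the only 1 of 15 listed genes past 2-fold at day 7, with 126.8 CPM in the naïve library and 53.7 at day 7, where 4.57% of tested genes were lower and 3.71% higher. Ptprz1 was the only 1 of 18 at day 14, with 0, 0 and 34 UMIs, where 3.67% of tested genes were lower. In non-myelinating Schwann-like cells none of 10 listed genes passed 2-fold at day 7, where 2.35% of tested genes were higher and 4.83% lower, and 1 of 13, Flt3l, was lower at day 14, with 12 UMIs and 46.2 CPM in the naïve library and 11 UMIs and 20.2 CPM at day 14, where 4.51% were. Mural-like cells held Pdgfrb, another receptor of the same family and 1 of their markers, at 816, 762 and 927 CPM, and endothelial-like cells held Kitl, the ligand of Kit, at 792, 829 and 858 CPM.

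The genes with the most similar pattern were found by the Pearson correlation of log2(CPM + 1) over 25 points, each a class with at least 30 cells in 1 library, among 14918 genes. For Csf1r they were Adgre1 (r = 0.97), the F4/80 antigen of macrophages and 1 of the gate's markers, Hpgds (r = 0.97), a prostaglandin D synthase, and Cd86 (r = 0.96), a costimulatory ligand. For Il34 they were Angptl2 (r = 0.94), an angiopoietin-like protein, Vasn (r = 0.93), vasorin of vascular smooth muscle, and Cspg4 (r = 0.90), the NG2 proteoglycan of pericytes. Csf1 had weaker companions: Acvr1 (r = 0.76), a BMP receptor, F8 (r = 0.72), coagulation factor VIII, and Ampd2 (r = 0.72), an AMP deaminase. The points share 3 libraries and differ in depth, so these correlations are a description.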

How the data were processed

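Whole L3 and L4 DRGs were dissociated and sequenced as single cells, 1 library for each of the naïve, day 7 and day 14 conditions. The authors deposited raw counts of UMIs per gene and cell; per the submitters' processing notes these come from Cell Ranger 3.0.2 and mm10. Whether counting used strand is not given in the sources used here. Coordinates are from GENCODE vM21, in which 30934 of 31053 gene identifiers were found. The upstream sequence is from RefSeq, which had an entry for 1 of the 3 genes.

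A cell was kept if 500 genes or more had a UMI and mitochondrial genes gave no more than 20% of its UMIs. A cell was placed in a class when at least 3 markers were detected and its score, the mean of scaled log2(counts per 10000 + 1) over the markers, was at least 1.5 times that of the runner-up. Doublets were treated by leaving out cells with no clear class; Scrublet, which marked 90 of 9662 cells (0.931%), was used as an alternative. Counts were summed per class and library. With 1 library per condition no test between conditions was made, and no p-value is given. Exact intervals were computed with scipy 1.17.1 at 95%, and a count of 0 was given the limit of 3 counts. Shares were thinned to 10000 UMIs in neuron-like and 2000 in other cells, leaving out shallower cells. For the share of all genes that differed, genes with at least 20 UMIs, a 2-fold difference and a pseudocount of 1 CPM were used; this step was tested on simulated data.

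Genes named beside the 3 members are those of the listed pathway genes past 2-fold, the injury, state and signalling genes of the lists, and the 3 genes most like each member; genes looked at after their values were seen are marked so. The values of 1 listed gene are not reported here. The members and lists were chosen with earlier results of these data known. Alternatives covered cell filters, markers required, doublets, clusters (scanpy 1.11.5, leidenalg 0.10.2), averaging over cells, other divisions by Atf3 or Sprr1a, pseudocounts and count limits. Python 3.11.15, numpy 2.4.6, pandas 2.3.3 and matplotlib 3.10.9 were used.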

Additional observations from a re-analysis of the deposited data

Results flagged for a closer look

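The day 14 difference in Csf1 from the naïve library went opposite ways in different classes. On the log2 scale it was 2.09 in neuron-like cells and 2.27 in fibroblast-like cells, but -0.59 in endothelial-like cells. With 1 library per condition the difference between classes was not tested.

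Cells that met no class, which enter the report only through totals over all kept cells, held Csf1r at 72.8 CPM at day 7 and 46.0 CPM at day 14, against 6.87 CPM in the naïve library. At day 7, 65 of their 87 Csf1r UMIs lay in 5 cells with at least 2 UMIs of C1qa, C1qb and C1qc, and at day 14, 93 of 110 in 14 such cells. The summed macrophage markers in these cells were 309, 832 and 808 CPM.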

How the results depend on the processing

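Of 324 values recomputed under other settings, 248 stayed within the spread set for them, 76 moved and none reversed. No paired analysis was possible because a condition is a lone library. The log2 difference of Csf1 in neuron-like cells ranged over 2.24 to 2.90 at day 7 and 1.96 to 2.39 at day 14.

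Csf1 in neuron-like cells at day 7 was 26.3 CPM with the stricter cell filter (at least 1000 genes, at most 10% mitochondrial), 39.3 as a mean over cells (log2 difference 2.90) and 39.6 without cells holding 2 or more C1q UMIs; at day 14 it was 22.4 without the highest cell and 31.6 without C1q cells. The log2 ratio of cells with Atf3 to those without was 2.28 in the naïve library when divided by Sprr1a and 2.70 when divided at 10 Atf3 UMIs; at day 7 it was 1.35 as a mean over cells and 4.83 at 10 UMIs, and at day 14 2.83 and 3.30.

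Il34 in mural-like cells for the naïve, day 7 and day 14 libraries was 579, 354 and 401 CPM with the stricter filter (log2 differences -0.71 and -0.53, with intervals that then excluded 0), 392, 339 and 355 as a mean over cells, 156, 152 and 132 with 5 or more Acta2 and Myh11 UMIs and 657, 539 and 529.8 with fewer. Csf1r in macrophage-like cells was 1600.2, 2125 and 1835 CPM by clusters (day 7 log2 difference 0.41), 1809 and 2171 as a mean over cells in the naïve and day 7 libraries (day 14 log2 difference 0.26), 1118, 1838 and 1374 with Ccr2, 2521, 2593 and 2613 without, 658, 1221 and 897 without Mrc1, and 2340.0 and 2281 with Mrc1 in the naïve and day 14 libraries. The macrophage-like share was 3.05%, 12.1% and 11.1% with the stricter filter.

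The share of genes 2-fold higher in neuron-like cells was 1.58% at day 7 with a limit of 100 UMIs, and 0.574% and 0.649% with a pseudocount of 10 CPM; in macrophage-like cells it was 21.4% and 24% with a limit of 1 UMI, 2.68% and 2.77% with 100, and 5.18% and 5.63% with a pseudocount of 10; and by Atf3 it was 2.85% with 100 UMIs and 1.56% with a pseudocount of 10 at day 7, and 0.910% with the latter at day 14. By Spearman, 0 of the 3 genes most like Csf1r were shared. Ampd2 then ranked 377 for Csf1, and Cspg4 ranked 20 for Il34. The causes of these shifts were not tested. The C1q, 10-UMI, neuron-type, Mrc1, Ccr2, smooth muscle and deep-cell alternatives were chosen after seeing the data.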
